A study of Mus musculus with 6 samples.

Results

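The genes described here encode the enzymes and transporters of glycolysis, of pyruvate and lactate handling and of the pentose phosphate pathway. They are 40 genes taken by symbol from a table of 27734 genes, and every one of the 40 symbols was found. The table gives expression in FPKM, fragments per length of transcript and per depth of library, a scale on which levels of different genes can be set side by side. It covers 3 wild-type and 3 mutant libraries of primary rib chondrocytes, the cells that make cartilage, from E18.5 mouse embryos, that is late in gestation. The mutants carried Jab1flox/flox and Col2a1-Cre, so that Cre recombinase driven by the Col2a1 promoter removed Jab1 from chondrocytes, and cells in which that promoter is silent kept the gene. The labels call the controls wild type and give no allele for them. No culture step followed the overnight digestion of the ribs. Whether each library is a separate embryo or litter is not stated, and a p-value here reflects only how far these libraries spread.

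Glycolysis splits glucose into pyruvate, and in cells with little oxygen most of that pyruvate is reduced to lactate and exported. Cartilage has no blood vessels, and growth plate chondrocytes are known for a strongly glycolytic metabolism that depends on hypoxia-inducible factor. The pyruvate dehydrogenase complex is the gate from pyruvate to mitochondrial oxidation and is switched off by its kinases and on by its phosphatases. The pentose phosphate pathway branches from the top of glycolysis, its oxidative arm making NADPH and its non-oxidative arm interconverting sugar phosphates and supplying ribose for nucleotides.

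Stretches before the start sites of 4 of these genes are printed here, because 3 of them are the members that changed between the groups and Slc16a3 is the member with the lowest log2 fold change. They are RefSeq sequences of build GRCm38.p6, 5′ to 3′, cut off where the first GENCODE M21 exon of the gene begins in the 250 bases before the start, and capitals mark ACGTG or its complement CACGT.
Pfkm, chr15:98092339-98092588, plus strand: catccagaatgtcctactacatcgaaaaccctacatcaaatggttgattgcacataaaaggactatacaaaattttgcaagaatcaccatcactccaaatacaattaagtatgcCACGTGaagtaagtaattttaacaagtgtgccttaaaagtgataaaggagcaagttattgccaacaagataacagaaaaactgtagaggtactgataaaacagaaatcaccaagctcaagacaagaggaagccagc
Pdk3, chrX:93832202-93832400, minus strand: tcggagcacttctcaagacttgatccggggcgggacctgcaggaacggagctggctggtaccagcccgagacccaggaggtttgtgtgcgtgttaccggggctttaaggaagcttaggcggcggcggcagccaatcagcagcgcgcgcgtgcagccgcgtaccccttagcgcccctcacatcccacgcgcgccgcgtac
Rpia, chr6:70792233-70792425, minus strand: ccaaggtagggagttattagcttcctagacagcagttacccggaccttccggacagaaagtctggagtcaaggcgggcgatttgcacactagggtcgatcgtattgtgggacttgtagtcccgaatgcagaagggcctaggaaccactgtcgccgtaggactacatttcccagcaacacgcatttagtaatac
Slc16a3, chr11:120948817-120949052, plus strand: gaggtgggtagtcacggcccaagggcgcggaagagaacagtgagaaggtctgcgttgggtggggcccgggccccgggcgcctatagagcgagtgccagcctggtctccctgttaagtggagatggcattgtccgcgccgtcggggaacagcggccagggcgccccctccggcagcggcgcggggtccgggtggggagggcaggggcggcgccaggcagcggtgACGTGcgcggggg
The Slc16a3 stretch lies between annotated exons of the gene. ACGTG is the core recognised by hypoxia-inducible factor, GCGTG is its other usual core, CACGTG is the E-box recognised by Myc and by the glucose-responsive ChREBP, and TGACNNNGC is the core of the antioxidant element recognised by NRF2. Each was searched on both strands, a CACGTG being counted as an ACGTG match as well. The RefSeq table held 55 windows for 38 of the 40 genes, some windows of the same gene overlapping each other, and none for Pdp1 and Slc2a3. ACGTG was found in 19 of the 55 windows (34.6%), against 22.1% of the windows of tested genes and 16.6% of all windows. GCGTG was found in 31 (56.4%, against 45.5% and 28.2%), CACGTG in 6 (10.9%, against 8.55% and 6.02%) and TGACNNNGC in 4 (7.27%, against 11.8% and 10.2%). The upstream Ldha window held 5 ACGTG matches at 3 places, since its 2 CACGTG are each read on both strands, the most of any member window. In the full windows of 250 bases whose beginnings are printed, Pfkm held 2 such matches, which are a single CACGTG read on both strands, Slc16a3 held 2, Pdk3 held 1 and Rpia none. Where a gene had several windows, the most upstream was printed. The other Pfkm windows, starting at 98108221, 98108306 and 98111810, held 1, 0 and 0 ACGTG matches and no CACGTG. A match describes the letters and is not a measured binding site.

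The 6 library columns held 571180 to 631534 FPKM in total, and log2 values of libraries of the same group correlated at 0.895 to 0.919 across genes. The number of reads behind each value is unknown. The targeted gene, listed as Cops5, measured 42.3, 39.8 and 40.1 FPKM in wild-type libraries 0, 1 and 2 and 17.0, 18.0 and 17.2 FPKM in mutant libraries 0, 1 and 2 (log2 fold change -1.18, SE 0.0599, limma adjusted p = 6.48e-04). All 11 chondrocyte markers found in the table, among them Acan, Sox9 and Comp, measured over 1 FPKM in every library. The title of wild-type library 0 carries the day 30 and those of the other dated libraries the day 24.

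Jab1-deficient chondrocytes had lower mean levels of most glycolytic genes, but few of these differences passed after adjustment over all genes tested. Of the 40 genes 39 were tested, Gapdh being left out for a mean under 1 FPKM. Of the members tested 1 rose, Rpia of the non-oxidative pentose phosphate arm, 2 fell, the phosphofructokinase gene Pfkm and the pyruvate dehydrogenase kinase gene Pdk3, and 36 did not pass (limma, adjusted p under 0.05). Of all 14012 genes tested, 3.48% rose and 2.59% fell, so that 1 and 2 of 39 are close to the background shares. At an unadjusted p under 0.05, 5 members were higher and 9 lower, against 12.7% and 12% of all genes tested. Fold changes were negative for 31 of the 39 members and positive for 8, with a median of -0.23 on the log2(FPKM + 1) scale, while over all genes 50.6% were negative and the median was -0.0039. The members' median was -0.081 without mutant library 0, -0.15 without wild-type library 0, -0.13 without wild-type library 1, -0.11 with library weights and -0.56 with a Y-linked covariate. Among the members tested, mutant and wild-type values did not overlap for 13 that were lower and 5 that were higher in mutants, against 15.9% and 16.3% of all genes tested. Added over all 40 genes, the level was 3194, 3372 and 2786 FPKM in the wild-type libraries and 1683, 2782 and 2736 FPKM in the mutant libraries.

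**Figure D1:**
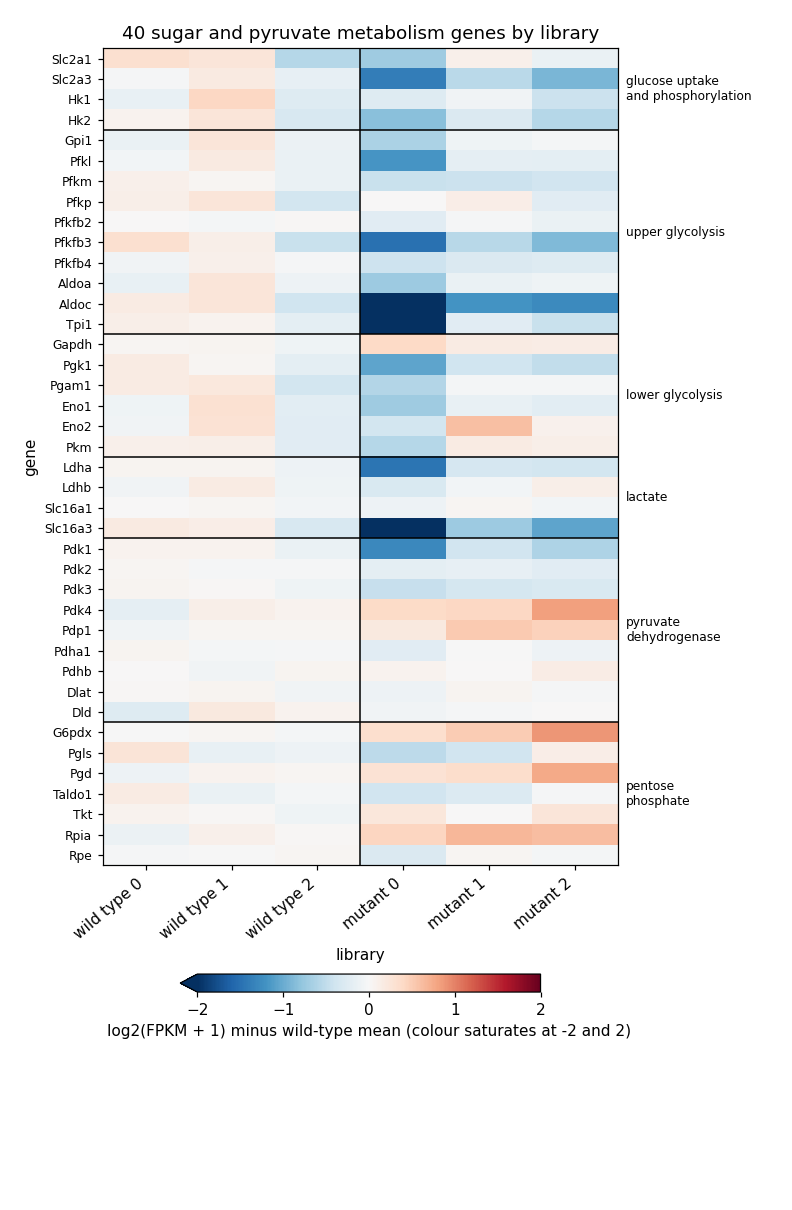
Levels of the 40 genes (rows, grouped by pathway step) in the 6 libraries (columns), as log2(FPKM + 1) minus the wild-type mean of the gene, blue for lower and red for higher, with the colour scale ending at -2 and 2. The blue column of mutant library 0 runs through glycolysis and lactate handling, and the red cells of the mutant libraries lie mostly in the pyruvate dehydrogenase and pentose phosphate blocks.

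Much of the difference lay in a single library. Mutant library 0 was the lowest of all 6 libraries for 28 of the 39 members, against 21.1% of all genes tested, and the lowest of the 3 mutant libraries for 34. Relative to each gene's wild-type mean, the median deviation of the members was -0.42 in mutant library 0 and -0.078 and -0.096 in mutant libraries 1 and 2 on the log2 scale. In the wild-type libraries it was 0.019, 0.10 and -0.10, wild-type library 2 being the lowest of its group for 25 members. The counts of 34 and 25 were not set against all genes. The median deviation over all genes was between -0.017 and 0.013 in every library. Without mutant library 0 the log2 fold change was -0.020 for Slc2a1, -0.061 for Gpi1, -0.18 for Pfkl, -0.12 for Aldoa, -0.032 for Pgam1, -0.18 for Eno1 and -0.50 for Pdk1, each at least 1.5 times nearer to 0 than with all libraries. Smaller relative shifts were found for Aldoc (-1.57 to -1.24), Pfkfb3 (-0.973 to -0.715), Slc2a3 (-0.944 to -0.724), Pgk1 (-0.646 to -0.444) and Hk2 (-0.564 to -0.427). Without wild-type library 1 the log2 fold change was -0.048 for Hk1, -0.13 for Gpi1, -0.19 for Aldoa and -0.21 for Eno1. In the fit without mutant library 0, 27 of the 39 members had negative fold changes, none fell and 2 rose, Rpia and Pdp1.

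Glucose enters chondrocytes through the transporters Slc2a1 and Slc2a3 and is trapped by the hexokinases Hk1 and Hk2. None of the 4 genes passed, and all 4 had negative fold changes. Slc2a1, the widely expressed transporter GLUT1 and the member with the highest level at this step, measured 129, 122 and 68.6 FPKM in the wild-type libraries against 62.2, 110 and 93.1 FPKM in mutant libraries (log2 fold change -0.25, SE 0.315, limma adjusted p = 0.662). Its groups overlapped, wild-type library 2 lying below 2 of the mutant libraries. Slc2a3, the high-affinity transporter GLUT3, measured 3.56, 4.25 and 3.15 FPKM in the wild-type libraries against 0.775, 2.20 and 1.46 FPKM in mutant libraries (log2 fold change -0.94, SE 0.237, limma adjusted p = 0.0780). Every mutant library of Slc2a3 lay below every wild-type library. Hk1, the housekeeping hexokinase, measured 17.7, 26.8 and 16.4 FPKM in the wild-type libraries against 16.4, 18.7 and 14.5 FPKM in mutant libraries, which overlapped. Hk2, the inducible hexokinase, measured 27.9, 31.3 and 21.1 FPKM in the wild-type libraries against 14.3, 21.4 and 17.5 FPKM in mutant libraries (log2 fold change -0.56, limma adjusted p = 0.154). Only the highest mutant library of Hk2 reached above the lowest wild-type library.

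Upper glycolysis, from sugar phosphate isomerisation to the triose phosphates, holds 10 of the genes. All 10 had negative fold changes, with a median of -0.37, and 1 fell and 9 did not pass. Pfkm on chromosome 15 (98092589 to 98132451, plus strand, mm10) encodes the muscle-type phosphofructokinase, the enzyme of the committed step. It fell from 33.2, 31.7 and 28.0 FPKM in the wild-type libraries to 22.3, 22.8 and 23.4 FPKM in mutant libraries, that is from 31.0 ± 2.66 to 22.9 ± 0.563 FPKM (SD, n = 3). Its log2 fold change was -0.42 (SE 0.0797, limma adjusted p = 0.0422), and the 3 mutant values lay close together below every wild-type value. The call was lost when any 1 library was left out (limma adjusted p = 0.0688 to 0.133), after median-of-ratios scaling (0.0542) and without the filter on low values (0.0619).

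The other phosphofructokinase genes did not pass. Pfkl, the liver type and the most abundant of the 3 by mean FPKM, measured 65.3, 77.1 and 61.9 FPKM in the wild-type libraries against 29.2, 60.0 and 59.2 FPKM in mutant libraries. Its groups did not overlap, but mutant libraries 1 and 2 lay just below the lowest wild-type value. Pfkp, the platelet type, measured 32.3, 35.3 and 22.9 FPKM in the wild-type libraries against 30.0, 32.6 and 25.2 FPKM in mutant libraries, with no separation. The bifunctional enzymes that make and remove the allosteric activator of phosphofructokinase are encoded by Pfkfb genes. Pfkfb3, the form with the strongest kinase activity, measured 32.1, 28.0 and 18.6 FPKM in the wild-type libraries against 8.47, 17.1 and 13.5 FPKM in mutant libraries (log2 fold change -0.97, SE 0.299, limma adjusted p = 0.121). Pfkfb4 measured 2.70, 3.17 and 2.80 FPKM in the wild-type libraries against 1.91, 2.16 and 2.26 FPKM in mutant libraries (log2 fold change -0.32, limma adjusted p = 0.135). Both had mutant values that were all below the wild-type values, while Pfkfb2 ranged from 4.60 to 5.68 FPKM over the 6 libraries and overlapped.

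Aldolase splits the doubly phosphorylated hexose into triose phosphates. Aldoa, the main aldolase here and the most abundant upper glycolytic gene, measured 465, 613 and 481 FPKM in the wild-type libraries against 312, 469 and 483 FPKM in mutant libraries (log2 fold change -0.32, SE 0.209, limma adjusted p = 0.405). Mutant library 2 of Aldoa lay above 2 of the wild-type libraries. Aldoc, the brain-type aldolase on chromosome 11 (78322968 to 78327781), measured 28.1, 30.0 and 18.7 FPKM in the wild-type libraries against 4.49, 10.4 and 9.79 FPKM in mutant libraries. Its log2 fold change of -1.57 (SE 0.331) came closest to passing among the other members (limma adjusted p = 0.0526), and its groups did not overlap. Aldoc passed with a minimum mean of 5 FPKM, with library weights and among protein-coding genes only (limma adjusted p = 0.0439, 0.0449 and 0.0157). Aldoc did not pass when any 1 library was left out (limma adjusted p = 0.0524 to 0.154). Nor did it pass with the Y-linked covariate (0.0855), a replicate block (0.158) or without the filter on low values (0.0878). Tpi1, which interconverts the triose phosphates, measured 456, 444 and 368 FPKM in the wild-type libraries against 103, 358 and 310 FPKM in mutant libraries (log2 fold change -0.90, SE 0.480, limma adjusted p = 0.311). Without mutant library 0 the fold change of Tpi1 was -0.34 (limma adjusted p = 0.206). Gpi1, the isomerase at the head of the pathway, ranged from 28.5 to 53.2 FPKM, with mutant library 0 the lowest and the other mutant libraries within the wild-type range.

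Lower glycolysis turns triose phosphate into pyruvate and yields the ATP of the pathway. None of its 5 tested genes passed, 4 with negative and 1 with positive fold changes. Pkm, pyruvate kinase and the most abundant gene of this step, measured 374, 382 and 300 FPKM in the wild-type libraries against 234, 390 and 381 FPKM in mutant libraries (log2 fold change -0.099, SE 0.228, limma adjusted p = 0.825). Mutant libraries 1 and 2 of Pkm lay near the top of the wild-type range and mutant library 0 below it, and the fold change was 0.14 without mutant library 0. Eno1, the main enolase, measured 79.3, 104 and 72.8 FPKM in the wild-type libraries against 51.0, 76.1 and 73.1 FPKM in mutant libraries, again with mutant library 0 alone outside the wild-type range. Eno2, the neuronal enolase, measured 1.79, 2.55 and 1.51 FPKM in the wild-type libraries against 1.26, 3.43 and 2.09 FPKM in mutant libraries, which overlapped. Pgk1, the first ATP-yielding kinase, on the X chromosome, measured 14.7, 13.4 and 11.3 FPKM in the wild-type libraries against 5.78, 9.63 and 9.02 FPKM in mutant libraries (log2 fold change -0.65, SE 0.196, limma adjusted p = 0.119). The Pgk1 groups did not overlap. Pgam1, phosphoglycerate mutase, ranged from 3.74 to 7.18 FPKM with overlapping groups.

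Gapdh, the dehydrogenase that is among the most abundant messages of most tissues, was listed at 0.319, 0.334 and 0.217 FPKM in the wild-type libraries against 0.697, 0.439 and 0.436 FPKM in mutant libraries. At 50 bases, the read length the labels give, 90.4% of the windows of its principal GENCODE M21 transcript occur identically in other annotated genes, which numbered 223 for all its transcripts and included 213 pseudogenes. The same share was 72.2% for Eno1, 68.0% for Pgk1, 41.5% for Pgam1, 34.4% for Pkm, 30.3% for Pdhb and 27.0% for Ldhb. It was 25.3% for Gpi1, 25.1% for Pfkfb2, 19.3% for Rpe, 17.1% for Ldha, 17.1% for Pfkp and 16.9% for Pdha1. For Aldoa it was 13.9%, for Taldo1 12.4%, for G6pdx 10.7% and for Tpi1 7.51%. Genes annotated over the same stretch of the genome were not taken out. A shared window therefore need not match several places. How reads that match several places were assigned is not given in the sources used here, and the part of shared sequence in these levels was not tested. The levels of these genes are therefore uncertain, and Gapdh, Pgk1 and Pgam1, at means of 0.407, 10.6 and 5.71 FPKM, stood far below their pathway neighbours Tpi1 and Pkm at 340 and 344 FPKM. No window of the principal transcripts of Pfkm, Pdk3, Rpia, Aldoc, Slc16a3, Slc2a3, Hk2 and Pdk1 was shared with another gene.

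**Figure D2:**
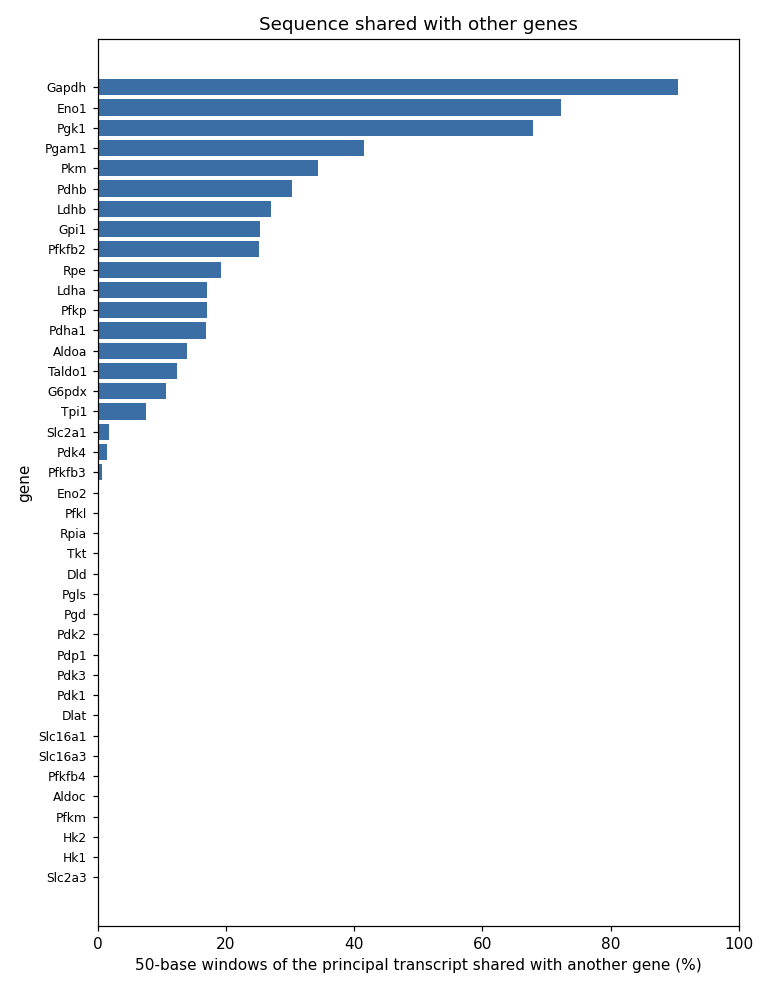
Share of 50-base windows of each gene's principal transcript (x axis, percent) that occur identically in another annotated gene, for the 40 genes (y axis). Gapdh, Eno1 and Pgk1 lie above 60%, and Pfkm, Pdk3, Rpia, Aldoc and Slc16a3 lie at 0.

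Lactate dehydrogenase reduces pyruvate to lactate, and the monocarboxylate transporters Slc16a1 and Slc16a3 carry lactate across the membrane. None of the 4 genes passed, and all had negative fold changes. Ldha, the form that favours lactate production and the member with the highest mean of all 40, measured 687, 690 and 618 FPKM in the wild-type libraries against 241, 528 and 514 FPKM in mutant libraries (log2 fold change -0.72, SE 0.317, limma adjusted p = 0.229). All 3 mutant values of Ldha lay below the wild-type values, and without mutant library 0 the fold change was -0.35 (limma adjusted p = 0.102). Ldhb, the form that favours lactate use, measured 18.7, 22.2 and 18.7 FPKM in the wild-type libraries against 15.8, 18.9 and 21.4 FPKM in mutant libraries, which overlapped.

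Slc16a3, the lactate exporter MCT4 on chromosome 11 (120948480 to 120960868, plus strand), had the lowest fold change of the 39 genes. It measured 110, 106 and 77.7 FPKM in the wild-type libraries against 5.77, 58.0 and 46.3 FPKM in mutant libraries (log2 fold change -1.88, SE 0.834, limma adjusted p = 0.233). All mutant values lay below the wild-type values, but mutant library 0 was far below the other mutant libraries, and without it the fold change was -0.89 (limma adjusted p = 0.0745). Slc16a1, the transporter MCT1, measured 52.5, 53.5 and 50.0 FPKM in the wild-type libraries against 48.3, 53.6 and 49.8 FPKM in mutant libraries (log2 fold change -0.041, SE 0.0683, limma adjusted p = 0.751). Its 6 values lay close together, mutant library 0 included.

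**Figure D3:**
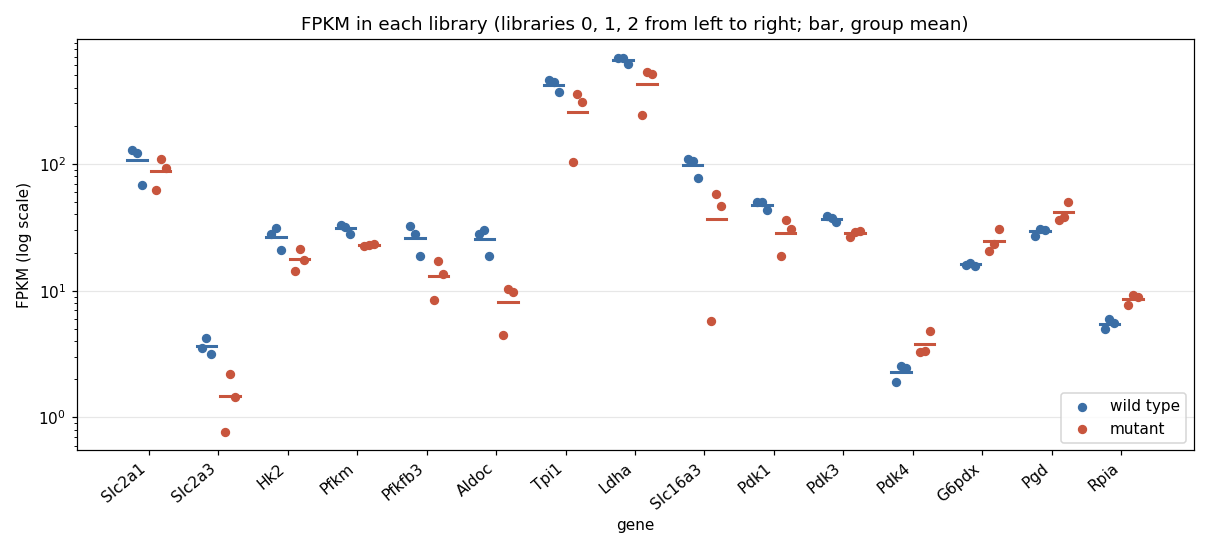
FPKM (log axis) of 15 members in wild-type (blue) and mutant (red) libraries, with libraries 0, 1 and 2 from left to right and a bar at each group mean. Mutant library 0 lies apart below the other mutant libraries for Slc16a3, Tpi1 and Ldha, while the 3 mutant values of Pfkm and of Pdk3 lie close together below the wild-type values.

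Pyruvate dehydrogenase is held inactive by the kinases Pdk1 to Pdk4 and reactivated by phosphatases. Of the 9 genes of this step 1 fell and 8 did not pass, with a median log2 fold change of -0.027. Pdk3, on the X chromosome (93764607 to 93832201, minus strand), fell from 38.5, 37.6 and 35.0 FPKM in the wild-type libraries to 26.7, 28.8 and 29.7 FPKM in mutant libraries, that is from 37.0 ± 1.86 to 28.4 ± 1.55 FPKM (SD, n = 3). Its log2 fold change was -0.37 (SE 0.0721, limma adjusted p = 0.0440), with a clear gap between the groups. As for Pfkm, the call was lost when any 1 library was left out (limma adjusted p = 0.0700 to 0.138), after median-of-ratios scaling (0.0593) and without the filter on low values (0.0607). Pdk1, the kinase best known as a target of hypoxia-inducible factor, measured 49.9, 49.7 and 43.0 FPKM in the wild-type libraries against 18.8, 36.0 and 30.7 FPKM in mutant libraries (log2 fold change -0.76, SE 0.238, limma adjusted p = 0.124). Its groups did not overlap either.

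Pdk4, the kinase induced by fasting and fatty acids, differed in the opposite direction without passing, at 1.89, 2.57 and 2.44 FPKM in the wild-type libraries against 3.30, 3.36 and 4.80 FPKM in mutant libraries (log2 fold change 0.54, SE 0.161, limma adjusted p = 0.114). Pdp1, the phosphatase that reactivates the complex, measured 3.73, 4.08 and 4.10 FPKM in the wild-type libraries against 4.69, 6.14 and 5.87 FPKM in mutant libraries (log2 fold change 0.40, SE 0.109, limma adjusted p = 0.0966). For both, every mutant library lay above every wild-type library. Pdk2 was low, at 1.62, 1.50 and 1.49 FPKM in the wild-type libraries against 1.21, 1.25 and 1.16 FPKM in mutant libraries (limma adjusted p = 0.378). The subunits of the complex itself lay close in both groups. Pdha1, the X-linked catalytic subunit and the most abundant gene of this step, measured 46.8, 44.0 and 44.3 FPKM in the wild-type libraries against 38.2, 44.6 and 42.0 FPKM in mutant libraries. Pdhb ranged from 23.9 to 27.7 FPKM, Dlat from 9.34 to 10.6 FPKM and Dld from 25.2 to 34.7 FPKM over the 6 libraries, all overlapping, with log2 fold changes of 0.075, -0.021 and -0.027.

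The pentose phosphate genes had 4 positive and 3 negative fold changes, with a median of 0.16. Of the 7 genes 1 rose and 6 did not pass. Rpia on chromosome 6 (70765720 to 70792232, minus strand) encodes the isomerase that makes ribose phosphate. It rose from 4.96, 5.98 and 5.56 FPKM in the wild-type libraries to 7.75, 9.28 and 8.98 FPKM in mutant libraries, that is from 5.50 ± 0.511 to 8.67 ± 0.810 FPKM (SD, n = 3). Its log2 fold change was 0.57 (SE 0.0983, limma adjusted p = 0.0345), and every mutant value lay above the wild-type values. The call remained without mutant library 0 (limma adjusted p = 0.0366) and was lost without each of the other 5 libraries (0.0855 to 0.117) and without the filter on low values (0.0648).

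The NADPH-yielding dehydrogenases of the oxidative arm were higher in mutant libraries without passing. G6pdx, the rate-limiting entry enzyme, on the X chromosome, measured 16.1, 16.6 and 15.7 FPKM in the wild-type libraries against 20.6, 23.2 and 30.5 FPKM in mutant libraries (log2 fold change 0.57, SE 0.145, limma adjusted p = 0.0796). Pgd, the following dehydrogenase, measured 27.2, 30.7 and 30.2 FPKM in the wild-type libraries against 35.9, 37.8 and 50.5 FPKM in mutant libraries (log2 fold change 0.47, SE 0.141, limma adjusted p = 0.117). In both, mutant library 2 was the highest and the groups did not overlap. G6pdx passed with library weights and among protein-coding genes only. With the Y-linked covariate the log2 fold change was 0.061 for G6pdx and 0.075 for Pgd (limma adjusted p = 0.929 and 0.919). Pgls, the lactonase between them, ranged from 42.9 to 74.2 FPKM and overlapped. Tkt, transketolase and the most abundant gene of the pathway, measured 102, 99.2 and 91.4 FPKM in the wild-type libraries against 114, 98.1 and 116 FPKM in mutant libraries (log2 fold change 0.16, SE 0.0923, limma adjusted p = 0.343). Taldo1, transaldolase, ranged from 46.3 to 68.4 FPKM and Rpe, the epimerase, from 12.0 to 15.3 FPKM, both with negative fold changes that did not pass.

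**Figure D4:**
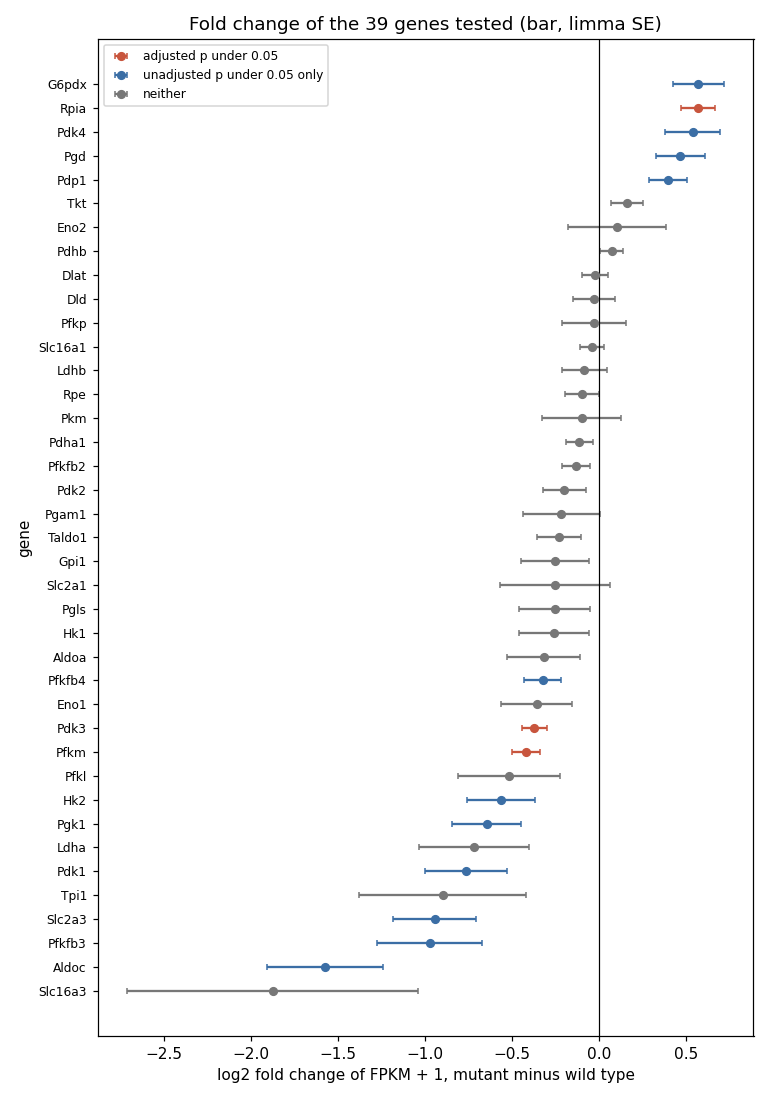
Log2 fold change of FPKM + 1, mutant minus wild type (x axis), with its limma standard error, for the 39 tested genes in order of fold change. Rpia, Pfkm and Pdk3 passed at an adjusted p under 0.05 with short error bars, while Slc16a3 at -1.88 has the longest.

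Ratios between related genes at the same step are free of library scaling, since both genes come from the same column. For 10 such ratios an exact two-sided permutation test was run, which with 3 libraries against 3 cannot give a p under 0.1, so no ratio could pass. Ratios whose groups did not overlap reached that smallest value (exact p = 0.1, 0.143 adjusted over the 10), and most of them reuse a gene whose own groups did not overlap. Slc16a3 made up 67.7%, 66.5% and 60.8% of the summed FPKM of Slc16a3 and Slc16a1 in the wild-type libraries against 10.7%, 52.0% and 48.2% in mutant libraries. Aldoc made up 5.71%, 4.66% and 3.75% of the aldolase pair in the wild-type libraries against 1.42%, 2.16% and 1.99% in mutant libraries. The glucose transporters showed the same order, Slc2a3 making up 2.69%, 3.37% and 4.39% of its pair in the wild-type libraries against 1.23%, 1.96% and 1.54% in mutant libraries. The Pdk1 to Pdk2 ratio was 30.8, 33.1 and 28.9 in the wild-type libraries against 15.5, 28.7 and 26.4 in mutant libraries.

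Ratios that were higher in mutants were those of Pdk4 to Pdk2, Ldhb to Ldha and Eno2 to Eno1. Pdk4 was 1.17, 1.71 and 1.64 times Pdk2 in the wild-type libraries against 2.72, 2.68 and 4.13 times Pdk2 in mutant libraries. Ldhb made up 2.65%, 3.11% and 2.93% of its pair in the wild-type libraries against 6.16%, 3.47% and 4.0% in mutant libraries, mutant library 0 being the highest. The Eno2 share was 2.21%, 2.39% and 2.03% in the wild-type libraries against 2.41%, 4.32% and 2.78% in mutant libraries, with only a narrow gap. The ratios of Hk2 to Hk1, Pfkp to Pfkl and Pfkm to Pfkl overlapped (exact p = 0.2, 0.3 and 1). Mutant library 0 stood apart for Pfkm to Pfkl, at 0.764 against 0.380 to 0.508 in the other libraries.

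**Figure D5:**
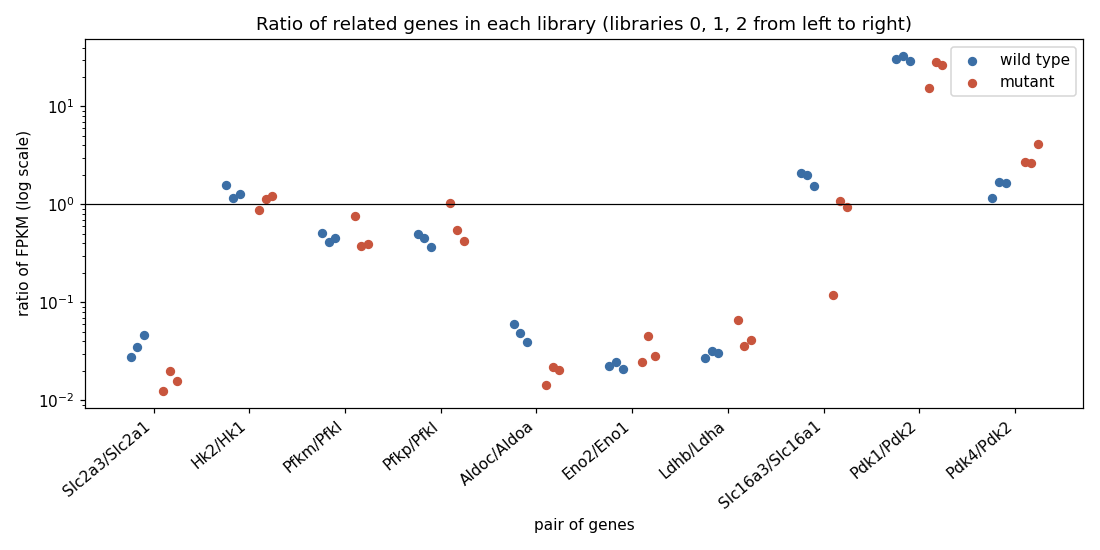
Ratio of the FPKM of related genes (log axis) for 10 pairs in wild-type (blue) and mutant (red) libraries, with libraries 0, 1 and 2 from left to right. The mutant ratios lie below all wild-type ratios for Slc2a3/Slc2a1, Aldoc/Aldoa, Slc16a3/Slc16a1 and Pdk1/Pdk2 and above them for Pdk4/Pdk2, Ldhb/Ldha and Eno2/Eno1.

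Several other measures moved with these groups or with mutant library 0, and fewer cells of a type and less RNA per cell cannot be told apart in such bulk samples. The summed level of the 11 chondrocyte markers was 8680 to 10238 FPKM in wild-type libraries, 9922 FPKM in mutant library 0 and 6137 and 5937 FPKM in mutant libraries 1 and 2. The sum is carried by a few abundant genes, and single markers in mutant library 0 went both ways. Acan (1516 against 905 to 1062 FPKM) and Matn1 (451 against 209 to 307 FPKM) lay above the wild-type range. So did Col11a2 (1946 against 1435 to 1890 FPKM), Hapln1 (965 against 619 to 917 FPKM) and Sox5 (40.3 against 30.6 to 37.8 FPKM). Below that range lay Comp (547 against 765 to 852), Matn3 (242 against 324 to 385) and Sox9 (70.6 against 74.3 to 77.7 FPKM). Of the 11 chondrocyte markers 2 fell, Comp and Matn3, and none rose. All 5 tested erythroid markers fell, the list summing to 196 to 221 FPKM in the wild-type libraries against 15.1 to 49.6 FPKM in mutant libraries, and its members Slc4a1, Epb42 and Klf1 were under 0.5 FPKM everywhere. The 10 macrophage and granulocyte markers summed to 97.3 to 254 FPKM in the wild-type libraries against 18.9 to 45.3 FPKM in mutant libraries, with 2 of 8 tested falling, S100a8 and S100a9. Those genes and Lyz2 made up most of the sum, and the list was not uniform. The macrophage genes Cd14 (2.00 ± 0.279 against 4.35 ± 1.69 FPKM, SD, n = 3) and Cd68 (6.53 ± 2.70 against 9.99 ± 6.70 FPKM) had higher mutant means without passing. Csf1r (2.79 ± 1.38 against 2.91 ± 2.67 FPKM) overlapped. Ptprc was lower without overlap (1.88 ± 0.765 against 0.373 ± 0.220 FPKM, limma adjusted p = 0.0686). The macrophage gene Adgre1 also had a lower mutant mean (1.12 ± 0.789 against 0.508 ± 0.297 FPKM), with overlapping groups, and was not tested. Lyz2, Mpo and Elane had lower mutant means without being called. The 13 skeletal muscle markers summed to 152 to 177 FPKM in the wild-type libraries against 55.9 to 84.0 FPKM in mutant libraries, 1 of 7 tested falling. Most of that was Tnnt3, and the other 12 summed to 14.5 to 35.1 FPKM in the wild-type libraries against 5.58 to 20.5 FPKM in mutant libraries, with Myod1 under 0.5 FPKM everywhere. Of 7 tested fibroblast and perichondrium markers 1 fell, Dcn, and none of 3 endothelial and 5 osteoblast markers passed. The fibroblast list summed to 821 to 1137 FPKM in the wild-type libraries against 731 to 1163 FPKM in mutant libraries, the endothelial list to 2.97 to 4.86 and 2.07 to 10.2 FPKM, and the osteoblast list to 51.0 to 155 and 31.8 to 197 FPKM. The part of these cell types in the members' values was not tested.

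Sex-linked genes also differed between the groups, which bears on every member, whatever its chromosome. A difference by sex and one by genotype cannot be fully told apart here. Among the members Pgk1, Pdk3, Pdha1 and G6pdx are the 4 that are X-linked. Xist, the RNA of the inactive X chromosome, measured 63.1, 64.6 and 65.9 FPKM in the wild-type libraries against 37.3, 0.0176 and 0.0244 FPKM in mutant libraries, and the Y-linked Ddx3y 0.157, 0.0281 and 0.450 FPKM in the wild-type libraries against 7.78, 46.1 and 36.0 FPKM in mutant libraries. Mutant library 0 lay between the wild-type libraries and the other mutant libraries for both, and so held both RNAs. Among 500 X-linked genes tested 11 rose and 24 fell, with a median log2 fold change of -0.086. With the level of 4 Y-linked genes as a covariate, none of Rpia, Pfkm and Pdk3 passed (limma adjusted p = 0.573, 0.298 and 0.175). In that fit Slc16a3, Tpi1, Ldha and Pdk1 fell instead, with log2 fold changes of -6.52, -3.54, -2.44 and -2.01 (limma adjusted p = 0.0149, 0.0244, 0.0258 and 0.0476). The Y-linked level, a mean of log2(FPKM + 1), was 0.0100 to 0.200 in wild-type libraries, 1.97 in mutant library 0 and 4.08 and 3.89 in mutant libraries 1 and 2, so the genotype term of that fit leans on mutant library 0, and in mutant libraries 1 and 2 the sex-linked levels and the genotype cannot be told apart.

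Other genes of the same pathways were called at close to the background shares. Of a list of 37 such genes 34 were in the table and 24 were tested, of which 1 rose, 1 fell and 22 did not pass, with a median log2 fold change of -0.071. Eno3, the muscle enolase, fell from 10.7, 10.5 and 11.5 FPKM in the wild-type libraries to 3.66, 5.25 and 6.72 FPKM in mutant libraries (log2 fold change -0.97, SE 0.186, limma adjusted p = 0.0433). Minpp1, an inositol polyphosphate phosphatase that also acts on bisphosphoglycerate, rose from 23.2, 23.1 and 21.5 FPKM in the wild-type libraries to 28.7, 28.4 and 31.3 FPKM in mutant libraries (log2 fold change 0.37, limma adjusted p = 0.0405). The Eno3 call was lost without mutant library 1 or any wild-type library (limma adjusted p = 0.108 to 0.140), and the Minpp1 call without any 1 of the 6 libraries (0.0600 to 0.140). At an unadjusted p under 0.05 there were further lower values without passing for H6pd, the endoplasmic reticulum counterpart of G6pdx (35.0 ± 0.306 against 29.4 ± 1.51 FPKM, SD, n = 3, limma adjusted p = 0.0806), for the D-lactate dehydrogenase gene Ldhd (1.74 ± 0.398 against 0.690 ± 0.126 FPKM), for the heptulose kinase gene Shpk (2.05 ± 0.247 against 0.975 ± 0.301 FPKM) and for the phosphatase gene Pdp2 (7.97 ± 0.427 against 6.49 ± 0.415 FPKM). Pcx, the carboxylase that feeds pyruvate to the citric acid cycle, was higher without passing (3.71 ± 0.301 against 5.57 ± 1.47 FPKM, SD, n = 3, limma adjusted p = 0.168). The most abundant genes of the list were Bsg, the chaperone of the lactate transporters, at 484, 592 and 387 FPKM in the wild-type libraries against 301, 412 and 368 FPKM in mutant libraries, and the ADP-dependent glucokinase gene Adpgk at 43.9 ± 0.715 and 49.0 ± 7.36 FPKM (SD, n = 3). Bsg was lowest in mutant library 0 and did not pass (limma adjusted p = 0.243).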

How the data were processed

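RNA was sequenced from 6 libraries of freshly isolated rib chondrocytes, as stranded, ribosomal RNA-depleted, single-end libraries of 50 bases, per the labels' protocols. The authors deposited a table of FPKM per gene and library. STAR, Cufflinks, Cuffdiff and mm10 are named in the submitters' processing notes, without versions or settings. Library columns 0 and 1 match sample labels by name, and column 2 of each group matches by group only.

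Values were analysed as log2(FPKM + 1), so fold changes of low genes are understated. Of 27734 genes, the 14012 whose mean reached 1 FPKM entered 1 linear model in limma (version 3.58.1, R 4.3.3; eBayes with trend, genotype only, two-sided). Benjamini-Hochberg adjustment ran over all 14012, and rose or fell means an adjusted p under 0.05. Paralog ratios were compared by exact permutation in scipy 1.17.1. Transcript windows and coordinates came from GENCODE M21. The fit was tested on simulated data with independent noise for each gene and library. That simulation held no effect shared by a whole library and no difference by sex.

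The members and all lists were chosen with earlier results of these data known. All 40 members are accounted for. Library values are given for members with an unadjusted p under 0.05, the highest of each role, paralog pairs and X-linked members, and also for Tpi1 and Gapdh, which were added after their values were seen. Other listed genes are named by an unadjusted p under 0.05 or the 2 highest means. Other genes, marker names among them, were named after their values were seen. The alternatives were another pseudocount, other filters and scalings, library weights, a replicate block, a Y-linked covariate and leaving out each library.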

Additional observations from a re-analysis of the deposited data

How the results depend on the processing

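The direction of Rpia, Pfkm and Pdk3 held under every alternative run, but their calls did not. Their calls remained with a pseudocount of 0.1, with a minimum mean of 5 FPKM and after quantile normalization. Leaving out 1 library at a time gave 0 to 2 members that rose and 0 that fell, and over all genes 99 to 377 that rose and 66 to 289 that fell, against 487 and 363 with all libraries. These fits have fewer libraries, and the lowest counts came without wild-type library 2 for genes that rose and without mutant library 2 for genes that fell. Without the filter on low values 0 members rose and 0 fell (295 and 166 of all genes). After median-of-ratios scaling Rpia alone rose and 0 members fell. With library weights 3 members rose, G6pdx, Pdp1 and Rpia, and 3 fell, Aldoc, Pdk3 and Pfkm (816 and 672 of all genes rose and fell). In the fit with a Y-linked covariate 0 members rose and 4 fell (189 and 47 of all genes). Among protein-coding genes only, of which 11055 were tested, 2 members rose, G6pdx and Rpia. In that fit 4 members fell, Aldoc, Pdk3, Pfkm and Slc2a3 (741 and 632 of all genes in it rose and fell). The cause of these shifts was not tested.

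Deviations of same-numbered libraries from their group means correlated at -0.033, -0.042 and -0.023. These values show no pairing by column number. They cannot exclude it, since differently numbered libraries were not compared. With the column number as a replicate block 0 members rose and 0 fell, and 44 and 16 of all genes.

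Reversed signs were found only for members that did not pass. With library weights the log2 fold change was 0.11 for Slc2a1, 0.098 for Pfkp, 0.021 for Pgam1, 0.13 for Pkm, 0.0035 for Slc16a1 and 0.034 for Dlat. With the Y-linked covariate it was 0.10 for Pfkp, -1.02 for Eno2 and -0.085 for Pdp1. Leaving out 1 library gave -0.21 to 0.093 for Pfkp, -0.14 to 0.34 for Eno2, -0.23 to 0.14 for Pkm, -0.18 to 0.025 for Ldhb, -0.062 to 0.021 for Dlat, -0.16 to 0.068 for Dld, -0.16 to 0.00068 for Rpe and -0.23 to 0.27 for the log2 difference in the Pfkm to Pfkl ratio. The table gives no read counts, so the precision that depth allows is unknown.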

Other observations

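Regulators known to act on these pathways gave no call. Of 16 genes, 15 were tested and none passed (limma), while 3.48% of all genes tested rose and 2.59% fell. Unadjusted p-values under 0.05 were found for 2 genes that were higher and 0 that were lower, against 12.7% and 12% of all genes tested. The median log2 fold change of the regulators was -0.066. Hif1a, which encodes the oxygen-sensitive subunit of hypoxia-inducible factor and had the highest mean, measured 91.7, 108 and 93.7 FPKM in the wild-type libraries against 76.9, 111 and 94.0 FPKM in mutant libraries (limma adjusted p = 0.822), its groups overlapping. Txnip, the glucose-responsive inhibitor of glucose uptake, measured 74.6, 90.7 and 58.2 FPKM in the wild-type libraries against 50.5, 76.2 and 71.6 FPKM in mutant libraries and overlapped too. Epas1, which encodes the related subunit HIF-2alpha, measured 0.995, 1.27 and 1.33 FPKM in the wild-type libraries against 4.01, 2.05 and 2.71 FPKM in mutant libraries (log2 fold change 0.81, SE 0.207, limma adjusted p = 0.0825), all mutant values lying above the wild-type values and mutant library 0 the highest. Nfe2l2, which encodes the antioxidant regulator NRF2, measured 20.6, 22.6 and 18.0 FPKM in the wild-type libraries against 25.1, 26.7 and 25.5 FPKM in mutant libraries (log2 fold change 0.33, SE 0.0926, limma adjusted p = 0.102), again without overlap.

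The oxygen-sensing hydroxylase genes Egln1 and Egln3 are named after their values were seen. Egln3 measured 14.6, 12.4 and 5.73 FPKM in the wild-type libraries against 1.46, 9.53 and 6.15 FPKM in mutant libraries (limma adjusted p = 0.379). Egln1 measured 34.2, 36.4 and 21.8 FPKM in the wild-type libraries against 9.61, 25.3 and 17.8 FPKM in mutant libraries (limma adjusted p = 0.231). For both genes mutant library 0 was the lowest of the 6 libraries and wild-type library 2 the lowest of its group. Other tested regulators lowest in mutant library 0 were Hif1a, Vhl, Mlx, Txnip and Sirt6. Those highest in that library were Epas1, Myc, Trp53 and Prkaa1. Among the 39 members tested mutant library 0 was lowest for 28, against 21.1% of all genes. Wild-type library 2 was the lowest of its group for 25 members, a count that was not set against all genes. A link between these regulators and the members was not tested.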
